A study of Mus musculus with 11 samples.

Results

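Genes that NF-κB induces and whose products restrain NF-κB or protect cells from death were examined in whole liver RNA of mice that lack Nemo in hepatocytes. They were Tnfaip3, Tnip1, Cyld, Traf1, Traf2, Birc2, Birc3, Bcl3, Gadd45b and Sod2, 10 of the 19938 genes that the array annotation names alone on a probe set, and each had such a probe set. A gene with several probe sets was read from the brightest, and this applied to Birc2 only. The study ran 11 Affymetrix whole-transcript mouse arrays, each on total liver RNA of a male C57/BL6 mouse 8 to 9 weeks old and fed chow. The groups were 3 Nemo/TNFR1 dKO livers (NemoΔhepa crossed to constitutive TNFR1-/-), 2 Nemo/TRAIL dKO livers (NemoΔhepa crossed to constitutive TRAIL-/-), 3 Nemo KO livers (NemoΔhepa) and 3 wild-type livers (WT). NemoΔhepa mice carry a loxP-flanked Nemo gene deleted in hepatocytes, so the other liver cells keep Nemo, whereas TRAIL and TNFR1 are missing from all cells. The sources used here do not name the Cre transgene, and none of the groups carries the TRAIL or TNFR1 deletion without the Nemo deletion. The labels give no litter and do not say whether the WT mice were littermates, so the p-values cover the spread among these samples and nothing beyond it.

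Nemo, the protein made from Ikbkg, holds together the IκB kinase complex, which frees NF-κB after tumour necrosis factor binds TNFR1. NF-κB then induces genes for its own brakes, among them the ubiquitin-editing enzyme A20 (Tnfaip3). It also induces genes that keep the cell alive, among them a cIAP ligase (Birc3) and the mitochondrial superoxide dismutase. In hepatocytes these protective products are known to decide whether tumour necrosis factor leads to survival or to death.

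The array values were log2 expression values. WT replicate 3 stood apart: its pancreatic acinar markers averaged 10.80 log2 units, against at most 5.59 in every other array. The counts of genes called against WT, and the calls it decides, are therefore also given without it. The medians and the counts by separation or by unadjusted p use all 11 arrays. Ikbkg itself fell by 0.45 log2 units in Nemo/TNFR1 dKO (SE 0.08, limma adjusted p = 0.00818) and by 0.41 in Nemo/TRAIL dKO (SE 0.09, adjusted p = 0.0239, kept in 7 of 11 fits that left out an array) relative to WT, and both calls held without WT replicate 3. With only the 2 groups compared, the Nemo/TRAIL dKO call was lost (limma adjusted p = 0.0711). In Nemo KO Ikbkg measured 8.34, 8.56 and 8.36, against 8.65, 8.73 and 8.60 in WT. This difference of -0.24 did not pass (limma adjusted p = 0.106, and 0.123 without WT replicate 3). A probe set outside the deleted exons would check nothing, and the sources used here do not name those exons. Macrophage markers moved with the loss of Nemo: 6 of 9 rose in Nemo/TNFR1 dKO, 6 in Nemo/TRAIL dKO and 7 in Nemo KO relative to WT (5, 4 and 6 without WT replicate 3). Their mean per array was 8.19 to 8.37, 8.24 to 8.39 and 8.26 to 8.55 in these genotypes, against 7.45 to 7.57 in WT. Stellate cell markers rose in 6, 5 and 6 of 7 cases in the same order, also without that array. T and NK cell markers rose in 4, 1 and 1 of 8 cases (2, 1 and 0 without it) and B cell markers in 2 of 5 in each genotype, with or without it. The T and NK cell markers averaged 6.22, 6.16 and 6.58 in the Nemo/TNFR1 dKO arrays, and at least 6.04 in every other Nemo-deficient array, against 5.83 to 5.98 in WT. Nemo/TNFR1 dKO replicate 3 was the highest of the 11. None of the 6 measured hepatocyte markers passed the test. They averaged 13.26 to 13.35, 13.24 to 13.31 and 13.26 to 13.28 per array, against 13.33 to 13.35 in WT, so Nemo KO and Nemo/TRAIL dKO lay below WT without overlap. In whole liver, fewer cells of a type and less RNA per cell cannot be told apart, and the part of these shifts in any result below was not tested.

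The promoters of these genes are shown first, because the NF-κB binding motif is what the group is known for. For each gene, RefSeq (build GRCm38.p6) gives windows around annotated starts, 12 windows for the 10 genes. The NF-κB consensus was searched on both strands and found in 5 of the 12 windows, against 4.51% of the 32851 mouse windows of the same length. It lay in the windows of Tnfaip3, Tnip1, Cyld, Bcl3 and Sod2. The stretches with the consensus are given on the strand of the gene, with the matched bases in capitals.
Tnfaip3, farther match: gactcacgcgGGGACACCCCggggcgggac
Tnfaip3, nearer match: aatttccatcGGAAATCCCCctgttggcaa
Tnip1: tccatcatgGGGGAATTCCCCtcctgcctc
Cyld: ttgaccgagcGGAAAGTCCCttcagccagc
Bcl3: tcggcggcagGGGAAGTCCCgctgcccggc
Sod2: cggggcggacGGGGTTCCCCgaggcggggc
These stretches are at chr10:19015516-19015545 and chr10:19015403-19015432 (minus strand) for Tnfaip3 and at chr11:54962978-54963007 (minus strand) for Tnip1. The others are at chr8:88696863-88696892 (plus strand) for Cyld, chr7:19822734-19822763 (minus strand) for Bcl3 and chr17:13007746-13007775 (plus strand) for Sod2. The match began 125 and 12 bases before the annotated start in Tnfaip3, 58 before it in Tnip1, 155 before it in Cyld and 83 before it in Sod2, and in Bcl3 it began at base 3 after the start. The Tnip1 run holds 3 overlapping matches. No window of Birc2, Birc3, Traf1, Traf2 or Gadd45b held the consensus, which says only that these letters are not in these windows.

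The results below turn on Cyld, Sod2 and Gadd45b. The bases just before the start of Sod2, which holds the consensus, and of Gadd45b, which does not, are therefore given in full, from chr17:13007589-13007838 and chr10:80929841-80930090 (GRCm38.p6, plus strand).
Sod2: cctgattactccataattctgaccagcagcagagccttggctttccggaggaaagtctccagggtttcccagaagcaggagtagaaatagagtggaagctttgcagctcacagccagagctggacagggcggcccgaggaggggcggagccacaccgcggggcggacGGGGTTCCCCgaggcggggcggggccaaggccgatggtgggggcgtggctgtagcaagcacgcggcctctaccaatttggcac
Gadd45b: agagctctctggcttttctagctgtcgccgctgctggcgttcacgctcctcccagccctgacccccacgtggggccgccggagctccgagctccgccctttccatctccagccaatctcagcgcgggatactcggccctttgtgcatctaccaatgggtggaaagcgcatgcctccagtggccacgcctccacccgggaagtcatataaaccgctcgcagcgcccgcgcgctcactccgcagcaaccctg
Capitals mark the consensus in Sod2. The C+G content of the stretch was 63.6% in Sod2 and 65.2% in Gadd45b.

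Relative to WT, most of these genes did not pass the test, and those that did went in different directions. In Nemo KO, Gadd45b rose (1.86-fold) while Cyld and Sod2 fell (to 0.833 and 0.803 of their WT level), and the other 7 genes did not pass the test. In Nemo/TRAIL dKO only Sod2 passed, and in Nemo/TNFR1 dKO only Cyld passed, each with a fall. These counts of 1, 1 and 3 of 10 genes in Nemo/TNFR1 dKO, Nemo/TRAIL dKO and Nemo KO stand beside 9.18%, 7.55% and 9.29% of all 35556 probe sets called at an adjusted p below 0.05. Of those probe sets 12146 have no gene symbol and 1621 have several. The share called among the 21789 with 1 symbol, the kind used for the 10 genes, was not computed. This limit applies to every share of all probe sets below. The median difference of the 10 genes was 0.03, 0.06 and 0.15 log2 units in that order, against -0.04, -0.05 and -0.05 over all probe sets. Without WT replicate 3 the genes called were Cyld in Nemo/TNFR1 dKO, Cyld and Sod2 in Nemo/TRAIL dKO, and Cyld in Nemo KO. The share of all probe sets called without this array was not computed, here or for the counts below. The 3 comparisons share the WT arrays. In the F test over the 4 genotypes none of the 10 genes passed, against 7.28% of all probe sets, and the smallest adjusted p were 0.0613 for Sod2, 0.0742 for Cyld and 0.122 for Gadd45b. By the unadjusted p of that F test, these 3 genes were under 0.05. The share of all probe sets under it was not computed, so nothing is drawn from this count.

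**Figure D1:**
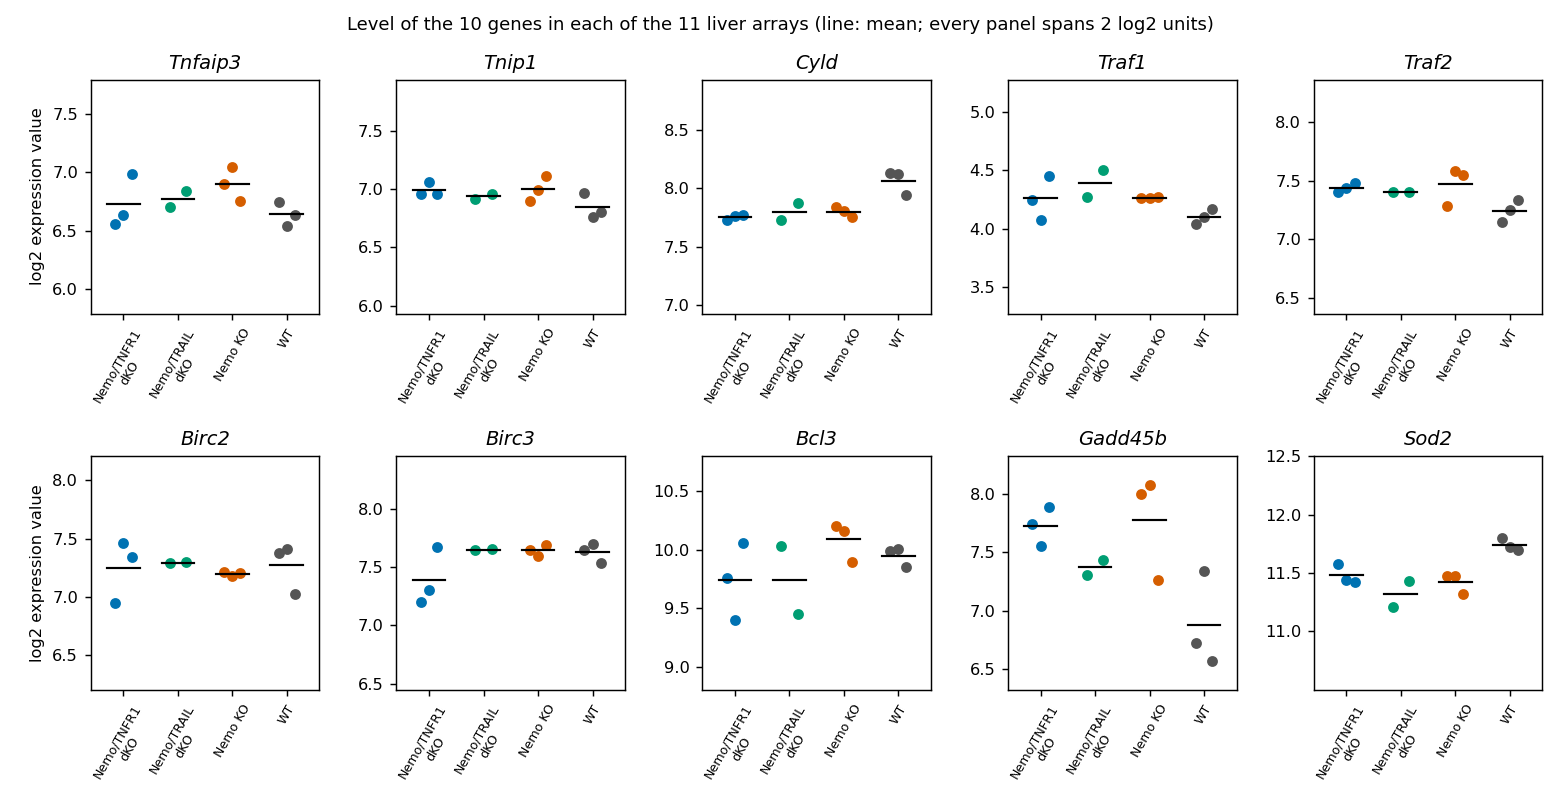
Log2 expression value (vertical axis) of each of the 10 genes in each array, by genotype (horizontal axis: Nemo/TNFR1 dKO, Nemo/TRAIL dKO, Nemo KO, WT); points are arrays and lines are group means. Every panel spans the same range, so that the 3 WT points of Cyld and of Sod2 can be seen above all Nemo-deficient points, and most of the other panels overlap.

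The brakes on NF-κB were Tnfaip3, Tnip1 and Cyld. Cyld, a deubiquitinase that removes the ubiquitin chains on which IκB kinase is activated, measured 7.73, 7.76 and 7.77 in Nemo/TNFR1 dKO, 7.73 and 7.87 in Nemo/TRAIL dKO, 7.84, 7.80 and 7.75 in Nemo KO, and 8.13, 8.12 and 7.94 in WT. All 8 Nemo-deficient livers were thus below all 3 WT livers. It fell in Nemo/TNFR1 dKO by 0.31 log2 units (SE 0.07, 95% interval -0.47 to -0.15, n = 3 and 3, limma adjusted p = 0.0266). In Nemo KO it fell by 0.26 (SE 0.07, interval -0.43 to -0.10, n = 3 and 3, limma adjusted p = 0.0491). The difference of -0.26 in Nemo/TRAIL dKO had the same size but did not pass (SE 0.08, n = 2 and 3, limma adjusted p = 0.0839). Without WT replicate 3, the lowest WT value, the limma adjusted p was 0.0149 in Nemo/TNFR1 dKO, 0.0375 in Nemo/TRAIL dKO and 0.0234 in Nemo KO. Leaving out any other array ended the Nemo KO call (limma adjusted p up to 0.153). The Nemo/TNFR1 dKO call held in 6 of 11 such fits and ended without WT replicate 1, WT replicate 2 or any Nemo/TNFR1 dKO array (limma adjusted p up to 0.0891).

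Tnfaip3, which encodes A20, measured 6.56, 6.63 and 6.98 in Nemo/TNFR1 dKO, 6.70 and 6.84 in Nemo/TRAIL dKO, 6.90, 7.04 and 6.76 in Nemo KO, and 6.74, 6.54 and 6.64 in WT. The Nemo KO values all lay above the WT values, and both double knockouts overlapped WT. The difference from WT was 0.26 in Nemo KO (SE 0.12, interval -0.01 to 0.53, limma adjusted p = 0.217). It was 0.09 in Nemo/TNFR1 dKO and 0.13 in Nemo/TRAIL dKO (limma adjusted p = 0.72 and 0.639). A difference of 0.44 would have been needed to pass in Nemo KO at this standard error. Tnip1 encodes ABIN1, a partner through which A20 reaches its ubiquitinated targets. It lay between 6.96 and 7.06 in Nemo/TNFR1 dKO, at 6.92 and 6.96 in Nemo/TRAIL dKO, between 6.90 and 7.11 in Nemo KO, and between 6.76 and 6.97 in WT. These ranges overlapped, and the differences from WT were 0.15, 0.09 and 0.16 in the same order of genotypes (limma adjusted p = 0.309, 0.613 and 0.255).

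The adaptors and ligases of the TNFR1 complex were Traf1, Traf2, Birc2 and Birc3, and none passed the test in any comparison. Traf2, the adaptor that brings the cIAP ligases to the receptor, measured 7.40, 7.44 and 7.48 in Nemo/TNFR1 dKO, 7.40 and 7.40 in Nemo/TRAIL dKO, 7.29, 7.58 and 7.55 in Nemo KO, and 7.15, 7.25 and 7.33 in WT. Both double knockouts lay above all WT values, and Nemo KO replicate 1 lay within the WT range. The difference was 0.20 in Nemo/TNFR1 dKO (SE 0.09, limma adjusted p = 0.21), 0.16 in Nemo/TRAIL dKO (limma adjusted p = 0.401) and 0.23 in Nemo KO (SE 0.09, interval 0.04 to 0.43, limma adjusted p = 0.135). Without Nemo KO replicate 1 it passed in Nemo KO, at 0.32 (limma adjusted p = 0.0357). The Nemo/TRAIL dKO values of Traf2 were the same number in the deposited table, so their spread is 0 there.

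Traf1, an adaptor without ligase activity that NF-κB induces in lymphocytes, had a dim probe set, at the 17.8th percentile of mean signal over all probe sets. It measured 4.25, 4.08 and 4.45 in Nemo/TNFR1 dKO, 4.27 and 4.51 in Nemo/TRAIL dKO, 4.26, 4.26 and 4.27 in Nemo KO, and 4.04, 4.10 and 4.16 in WT. Nemo/TRAIL dKO and Nemo KO lay above WT without overlap. Its largest difference from WT was 0.29 in Nemo/TRAIL dKO (SE 0.11, interval 0.04 to 0.53, limma adjusted p = 0.173). Nemo KO and Nemo/TNFR1 dKO each differed from WT by 0.16 (limma adjusted p = 0.347 and 0.399).

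Birc2 and Birc3 encode cIAP1 and cIAP2, ubiquitin ligases that build the chains on RIPK1 and hold back cell death. Birc3 measured 7.20, 7.30 and 7.67 in Nemo/TNFR1 dKO, 7.64 and 7.65 in Nemo/TRAIL dKO, 7.64, 7.59 and 7.69 in Nemo KO, and 7.64, 7.70 and 7.54 in WT. All groups other than Nemo/TNFR1 dKO lay within 7.54 to 7.70, and in Nemo/TNFR1 dKO replicates 1 and 2 were below that band while replicate 3 was inside it. The difference between Nemo/TNFR1 dKO and WT was -0.24 (SE 0.11, interval -0.48 to 0.01, limma adjusted p = 0.241). Without Nemo/TNFR1 dKO replicate 3 it was -0.37 and passed (limma adjusted p = 0.0263). In Nemo/TRAIL dKO and Nemo KO the difference from WT was 0.02 each, with intervals of -0.25 to 0.30 and -0.23 to 0.26.

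Birc2 measured 6.95 to 7.46 in Nemo/TNFR1 dKO, 7.29 and 7.30 in Nemo/TRAIL dKO, 7.18 to 7.21 in Nemo KO, and 7.03 to 7.41 in WT. The ranges of Nemo/TNFR1 dKO and WT spanned those of the other groups, and the differences from WT were -0.02, 0.02 and -0.07 in the order Nemo/TNFR1 dKO, Nemo/TRAIL dKO and Nemo KO. Their 95% intervals lay between -0.38 and 0.36. A second Birc2 probe set gave differences of 0.08, 0.02 and 0.03 in that order and did not pass either (limma adjusted p = 0.591, 0.942 and 0.848). Birc2 and Birc3 are neighbouring genes with related sequences, and how far their probes read the other transcript was not tested.

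Bcl3, an IκB-like nuclear protein that works with the p50 and p52 subunits at target promoters, was the most scattered of the 10 genes after Gadd45b. It measured 9.76, 9.39 and 10.06 in Nemo/TNFR1 dKO, 10.03 and 9.45 in Nemo/TRAIL dKO, 10.21, 10.16 and 9.89 in Nemo KO, and 9.99, 10.01 and 9.85 in WT. Each double knockout had a liver at or above the WT range and a liver clearly below it. The differences from WT were -0.21 in Nemo/TNFR1 dKO (SE 0.19), -0.21 in Nemo/TRAIL dKO (SE 0.21) and 0.14 in Nemo KO (SE 0.19), with limma adjusted p = 0.548, 0.624 and 0.684. At this spread a difference of about 0.69 was needed to pass in Nemo KO, so smaller measured changes of Bcl3 would not have been called.

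The survival genes were Gadd45b and Sod2. Gadd45b encodes a small protein that binds the kinase MKK7 and restrains JNK signalling. It measured 7.75, 7.55 and 7.89 in Nemo/TNFR1 dKO, 7.31 and 7.44 in Nemo/TRAIL dKO, 8.00, 8.08 and 7.26 in Nemo KO, and 6.73, 7.34 and 6.57 in WT. The Nemo/TNFR1 dKO livers lay above all WT livers, whereas Nemo KO replicate 3 and Nemo/TRAIL dKO replicate 1 were below WT replicate 2. It rose in Nemo KO by 0.90 log2 units (SE 0.24, interval 0.36 to 1.44, n = 3 and 3, limma adjusted p = 0.0479). The difference in Nemo/TNFR1 dKO was 0.85, close in size, but missed the threshold (SE 0.24, interval 0.31 to 1.39, limma adjusted p = 0.0596), and in Nemo/TRAIL dKO it was 0.49 (SE 0.27, interval -0.11 to 1.10, limma adjusted p = 0.341).

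The call of Gadd45b in Nemo KO was the only member call that reached 1.5-fold. It was retained in 2 of 11 fits without an array, those without WT replicate 2 or Nemo KO replicate 3, which lie nearest to the other group, and was lost in the other 9 (limma adjusted p up to 0.15). Without WT replicate 3 the Gadd45b difference was 0.70 in Nemo/TNFR1 dKO (limma adjusted p = 0.155) and 0.75 in Nemo KO (limma adjusted p = 0.129). Without either WT replicate 2 or Nemo KO replicate 3, the Nemo/TNFR1 dKO difference passed as well (limma adjusted p down to 0.0267).

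Sod2, the manganese superoxide dismutase of mitochondria, measured 11.58, 11.44 and 11.42 in Nemo/TNFR1 dKO, 11.21 and 11.44 in Nemo/TRAIL dKO, 11.47, 11.47 and 11.32 in Nemo KO, and 11.80, 11.72 and 11.70 in WT. As with Cyld, the WT livers were the 3 highest of the 11. It fell in Nemo/TRAIL dKO by 0.42 (SE 0.09, interval -0.62 to -0.21, n = 2 and 3, limma adjusted p = 0.0239). In Nemo KO it fell by 0.32 (SE 0.08, interval -0.50 to -0.13, n = 3 and 3, limma adjusted p = 0.0417). The difference of -0.26 in Nemo/TNFR1 dKO did not pass (SE 0.08, interval -0.44 to -0.07, limma adjusted p = 0.0875).

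The Sod2 call in Nemo KO was kept in 3 of 11 fits that left out an array, those without Nemo/TRAIL dKO replicate 1, Nemo/TRAIL dKO replicate 2 or Nemo/TNFR1 dKO replicate 1, with limma adjusted p up to 0.144 in the rest. In Nemo/TRAIL dKO the call held in 8 of 11. It ended without WT replicate 1, WT replicate 2 or Nemo/TRAIL dKO replicate 1, and without the last of these the difference was -0.30 (limma adjusted p = 0.199). Without WT replicate 3 the Sod2 difference was -0.28 in Nemo/TNFR1 dKO (limma adjusted p = 0.12), -0.34 in Nemo KO (limma adjusted p = 0.0671) and -0.44 in Nemo/TRAIL dKO (limma adjusted p = 0.0422).

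**Figure D2:**
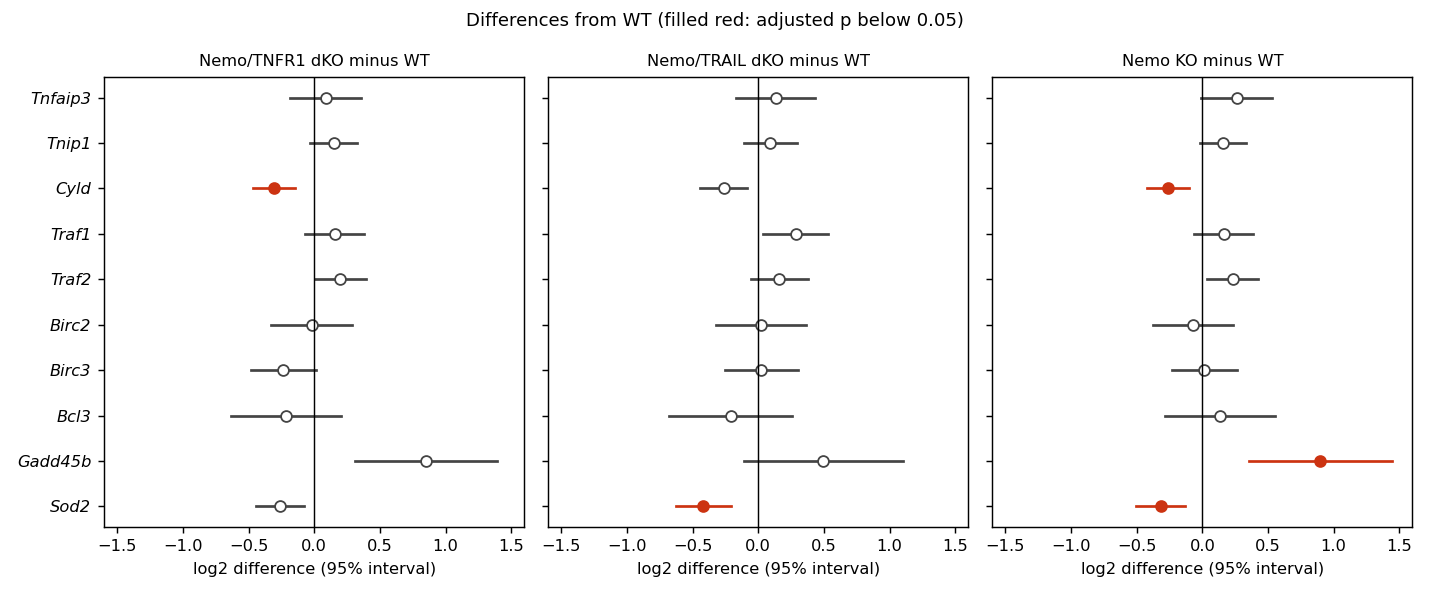
Log2 difference from WT (horizontal axis) with its 95% interval for each of the 10 genes (rows), in Nemo/TNFR1 dKO, Nemo/TRAIL dKO and Nemo KO; filled red points have an adjusted p below 0.05. Cyld and Sod2 lie left of 0 in all 3 panels and Gadd45b lies right of 0, with 5 filled points in all.

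Counted by separation alone, 2 genes lay wholly above and 2 wholly below WT in each comparison. The lower ones were Cyld and Sod2 each time. The higher ones were Gadd45b and Traf2 in Nemo/TNFR1 dKO, Traf1 and Traf2 in Nemo/TRAIL dKO, and Tnfaip3 and Traf1 in Nemo KO. Over all probe sets 13.9%, 21.1% and 17.4% lay wholly below WT, and 11.6%, 14.7% and 12.8% wholly above, in the order Nemo/TNFR1 dKO, Nemo/TRAIL dKO and Nemo KO. A share of 2 in 10 is near these backgrounds. By the unadjusted p, 4, 3 and 4 of the 10 genes were under 0.05, against 23%, 21.2% and 24.8% of all probe sets.

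**Figure D3:**
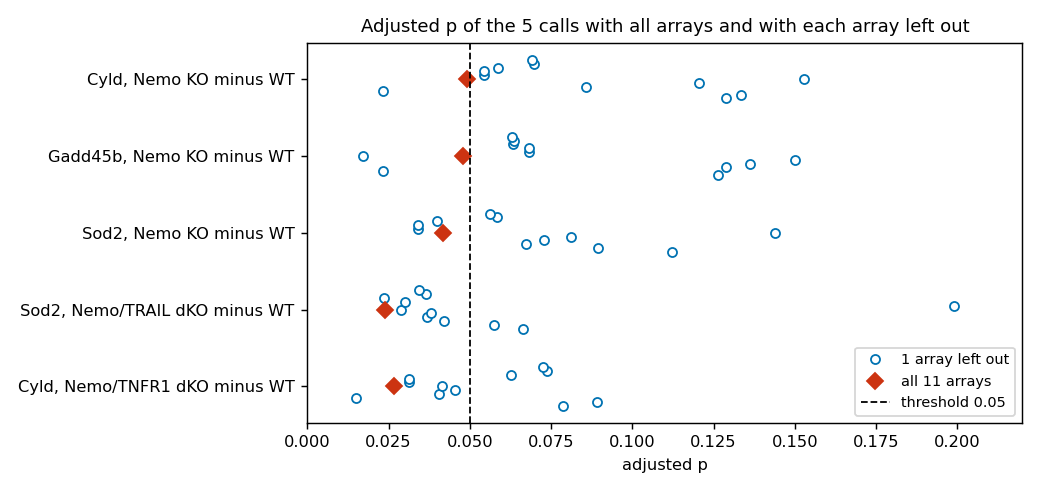
Adjusted p (horizontal axis) of the 5 gene and comparison pairs that passed (rows), with all 11 arrays (red diamonds) and with each array left out in turn (open circles); the dashed line is the threshold of 0.05. In each of the rows, circles fall on both sides of the line, and the Nemo KO calls keep at most 3 of 11 circles left of it.

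The double knockouts were set against Nemo KO and against each other, to ask whether removing TRAIL or TNFR1 changes these genes in livers that lack Nemo. None of the 10 genes passed in any of these 3 comparisons. Few probe sets passed at all: 0.0337% in Nemo/TNFR1 dKO against Nemo KO, 0.00562% in Nemo/TRAIL dKO against Nemo KO, and 0.0478% between the double knockouts. The largest p that passed in each comparison was turned into a difference at the standard error of each gene. That difference ran from 0.58 (Cyld in Nemo/TNFR1 dKO against Nemo KO) to 3.17 log2 units (Gadd45b in Nemo/TRAIL dKO against Nemo KO). These sizes reflect how few probe sets passed as well as the standard errors, so they are a guide and not an exact limit. A gene that did not pass may still differ between these genotypes.

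The intervals show what these comparisons leave possible for each gene. For Cyld the difference from Nemo KO was -0.04 in Nemo/TNFR1 dKO (interval -0.20 to 0.12) and 0.00 in Nemo/TRAIL dKO (interval -0.18 to 0.18). For Sod2 it was 0.06 (interval -0.13 to 0.24) and -0.10 (interval -0.31 to 0.11) in that order. These intervals are narrow next to the wide ones of Gadd45b, whose difference from Nemo KO was -0.05 in Nemo/TNFR1 dKO (interval -0.59 to 0.49) and -0.40 in Nemo/TRAIL dKO (interval -1.01 to 0.20). For Bcl3 the difference from Nemo KO was -0.35 in each double knockout, with intervals of -0.77 to 0.07 in Nemo/TNFR1 dKO and -0.82 to 0.12 in Nemo/TRAIL dKO.

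At an unadjusted p below 0.05, Birc3 alone of the 10 genes stood out, and only in Nemo/TNFR1 dKO against Nemo KO. Of all probe sets 6.86% did so there, 4.04% in Nemo/TRAIL dKO against Nemo KO, and 5.03% between the double knockouts. The Birc3 difference there was -0.25 (SE 0.11, limma adjusted p = 0.72), and it was -0.26 against Nemo/TRAIL dKO (SE 0.12, limma adjusted p = 0.995). Tnfaip3 differed from Nemo KO by -0.17 in Nemo/TNFR1 dKO (interval -0.45 to 0.10) and by -0.13 in Nemo/TRAIL dKO (interval -0.43 to 0.17). The remaining genes, Tnip1, Traf1, Traf2 and Birc2, differed by at most 0.13 log2 units in size in any of the 3 comparisons, with intervals inside -0.38 to 0.43. The median over the 10 genes was -0.04 in Nemo/TNFR1 dKO and -0.07 in Nemo/TRAIL dKO against Nemo KO, and -0.02 between the double knockouts, against 0.01, 0.00 and 0.01 over all probe sets.

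**Figure D4:**
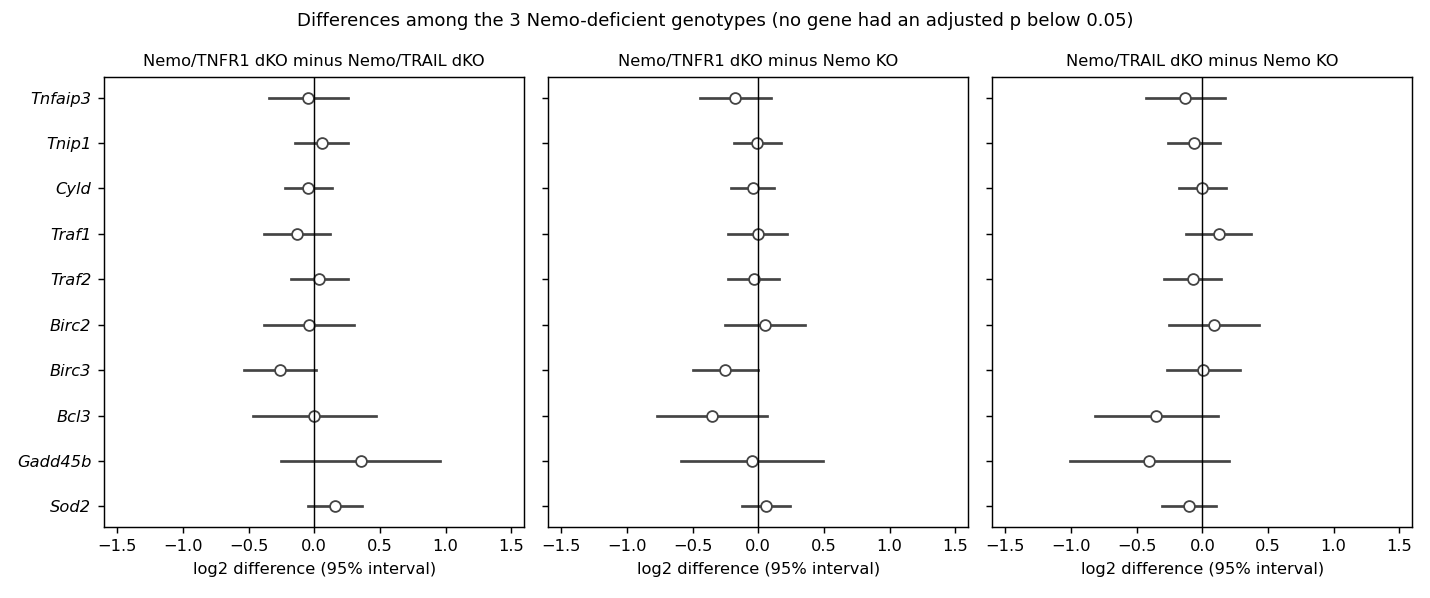
Log2 differences with 95% intervals (horizontal axis) of the 10 genes (rows) between Nemo/TNFR1 dKO and Nemo/TRAIL dKO, Nemo/TNFR1 dKO and Nemo KO, and Nemo/TRAIL dKO and Nemo KO. No point is filled, since no gene had an adjusted p below 0.05, and the intervals of Cyld and Sod2 are narrower than those of Gadd45b and Bcl3.

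Other genes of the pathway were counted from lists written for these comparisons, 71 measured genes in all. Relative to WT, 10 rose and 1 fell in Nemo/TNFR1 dKO, 12 rose and 1 fell in Nemo/TRAIL dKO, and 14 rose and none fell in Nemo KO. Over all probe sets 5.83% rose and 3.35% fell in Nemo/TNFR1 dKO, 4.91% rose and 2.64% fell in Nemo/TRAIL dKO, and 6.08% rose and 3.21% fell in Nemo KO. None of the 71 passed between the Nemo-deficient genotypes. The fall in each double knockout was that of Ikbkg, the targeted gene. Without WT replicate 3, 6 rose and 3 fell in Nemo/TNFR1 dKO, 9 rose and 2 fell in Nemo/TRAIL dKO, and 10 rose and 1 fell in Nemo KO, and 7 of 11, 10 of 13 and 9 of 14 calls were kept. The falls gained were those of the ubiquitin ligase gene Itch in each genotype and of Tab3 in Nemo/TNFR1 dKO, both named here after their values were seen. Over the 11 fits that left out an array, 5 of 11, 1 of 13 and 9 of 14 calls held in every fit, so the single-gene calls below carry the number of fits in which they held where it was below 11.

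Among the 9 measured NF-κB and IκB subunits, only Nfkbie, which encodes IκBε, passed, and only in Nemo KO (0.47, SE 0.12, limma adjusted p = 0.0441). That call held in 4 of 11 fits and was lost without WT replicate 3 (0.51, limma adjusted p = 0.0668). It was also lost with only the 2 groups compared (limma adjusted p = 0.0541). Of the 17 measured genes of the IκB kinase, LUBAC and TNF receptor complex, Map3k14, the kinase NIK of the alternative NF-κB pathway, rose by 0.54 in Nemo/TNFR1 dKO (limma adjusted p = 0.0135, held in 10 of 11), by 0.59 in Nemo/TRAIL dKO (0.0176, 9 of 11) and by 0.62 in Nemo KO (0.00672). The Map3k14 call in Nemo/TRAIL dKO was lost with only the 2 groups compared (limma adjusted p = 0.0732). Tnfrsf1a, the gene of TNFR1, rose in Nemo/TRAIL dKO (0.43, limma adjusted p = 0.0314) and in Nemo KO (0.35, limma adjusted p = 0.0401). These calls held in 7 and 4 of 11 fits, with limma adjusted p up to 0.175 and 0.135, and both were lost without WT replicate 3 or with only the 2 groups compared. In Nemo/TNFR1 dKO, where Tnfrsf1a was targeted, its probe set measured 10.04, 9.95 and 10.19, against 10.09, 9.93 and 9.95 in WT.

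Family relatives of the 10 genes were measured for 14 genes. Sod3, the secreted superoxide dismutase, rose in Nemo/TNFR1 dKO (0.69), Nemo/TRAIL dKO (0.68) and Nemo KO (0.68), with limma adjusted p = 0.0019, 0.00448 (held in 10 of 11) and 0.00203. Sod3 and Sod2 thus moved in opposite directions wherever Sod2 passed. Birc5, the mitotic IAP relative survivin, rose in Nemo/TNFR1 dKO (0.93, limma adjusted p = 0.0159, held in 10 of 11) and in Nemo KO (0.76, limma adjusted p = 0.0372, 3 of 11), and both calls were lost without WT replicate 3 (limma adjusted p = 0.0507 and 0.105). Birc5 in Nemo/TNFR1 dKO was also lost with only the 2 groups compared (limma adjusted p = 0.0732). The remaining relatives, among them Xiap, Sod1, Gadd45a and the other measured TRAF genes, did not pass.

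A further list held 17 measured feedback and survival genes. In Nemo KO 5 rose: the adaptor Tifa by 1.18, the deubiquitinase gene Otud7b by 0.52, the A20 partner Rnf11 by 0.44, and Bcl2l1, which encodes Bcl-xL, by 0.38, with limma adjusted p = 0.00596, 0.00997, 0.01 and 0.0206. The Bcl2l1 call held in 7 of 11. The fifth was the Bcl-2 relative Mcl1 (0.37, limma adjusted p = 0.0473), named beyond the 4 largest after its values were seen, and its call held in 1 of 11 fits. Bcl2l1 also rose in Nemo/TNFR1 dKO (0.33, limma adjusted p = 0.0399, held in 3 of 11) and in Nemo/TRAIL dKO (0.47, limma adjusted p = 0.0153, 9 of 11). Rnf11 rose in Nemo/TNFR1 dKO (0.38, limma adjusted p = 0.0186, 8 of 11), and Tifa in Nemo/TRAIL dKO (1.35, limma adjusted p = 0.00674, 10 of 11). Without WT replicate 3 the calls of Bcl2l1 and Rnf11 in Nemo/TNFR1 dKO and of Bcl2l1 and Mcl1 in Nemo KO were lost, and Tifa differed by 1.14 in Nemo/TRAIL dKO and 0.97 in Nemo KO. The Bcl2l1 call in each genotype, and the Mcl1 call in Nemo KO, were lost with only the 2 groups compared.

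Among the 5 pathway lists, the inflammatory NF-κB targets had the highest median difference from WT, 0.37 in Nemo/TNFR1 dKO, 0.42 in Nemo/TRAIL dKO and 0.30 in Nemo KO. The median of the 7 stellate markers was higher, at 1.24, 0.997 and 1.15, and so was that of the 9 macrophage markers, at 0.65, 0.78 and 0.90. The medians of the other cell type lists were lower in each genotype. Of the 15 inflammatory genes, 5 rose in Nemo/TNFR1 dKO, 7 in Nemo/TRAIL dKO and 4 in Nemo KO (4, 5 and 4 without WT replicate 3), and the other 10, 8 and 11 did not pass. The adhesion molecule gene Vcam1 rose by 2.34, 2.53 and 2.32 in that order, with limma adjusted p = 0.000482, 0.00069 and 0.000437. The chemokine gene Ccl5 rose by 1.23, 1.10 and 1.03 (limma adjusted p = 0.0048, 0.0166 and 0.0117), and its Nemo/TRAIL dKO call held in 8 of 11. The chemokine gene Cx3cl1 rose by 0.76, 0.78 and 1.18 (limma adjusted p = 0.0212, 0.0348 and 0.00271). Its calls in Nemo/TNFR1 dKO and Nemo/TRAIL dKO held in 9 and 5 of 11 fits, with limma adjusted p up to 0.0681 and 0.254, and were lost with only the 2 groups compared. Icam1, another adhesion molecule gene, rose by 0.51 in Nemo/TNFR1 dKO and in Nemo KO (limma adjusted p = 0.00969 and 0.00937). It also rose by 0.51 in Nemo/TRAIL dKO (limma adjusted p = 0.0183, held in 9 of 11), a call lost with only the 2 groups compared. Cxcl10 rose in Nemo/TRAIL dKO (0.99, limma adjusted p = 0.0134, held in 10 of 11). Several of these genes are also expressed by macrophages, lymphocytes, stellate and endothelial cells. The mean level of the macrophage, stellate, T and NK cell and B cell markers was higher in the same livers. Single markers did not all go that way. In Nemo/TNFR1 dKO, Nemo/TRAIL dKO and Nemo KO, 4, 3 and 4 of the 5 B cell markers were higher than in WT and the rest lower. Of the 8 T and NK cell markers 8, 6 and 6 were higher, and of the 6 endothelial markers 4, 4 and 3. Nemo/TNFR1 dKO replicate 3, the array with the highest T and NK cell markers, also had the highest Ccl5 value (8.78). Whether Ccl5 or the other inflammatory genes follow these markers over the arrays was not tested.

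**Figure D5:**
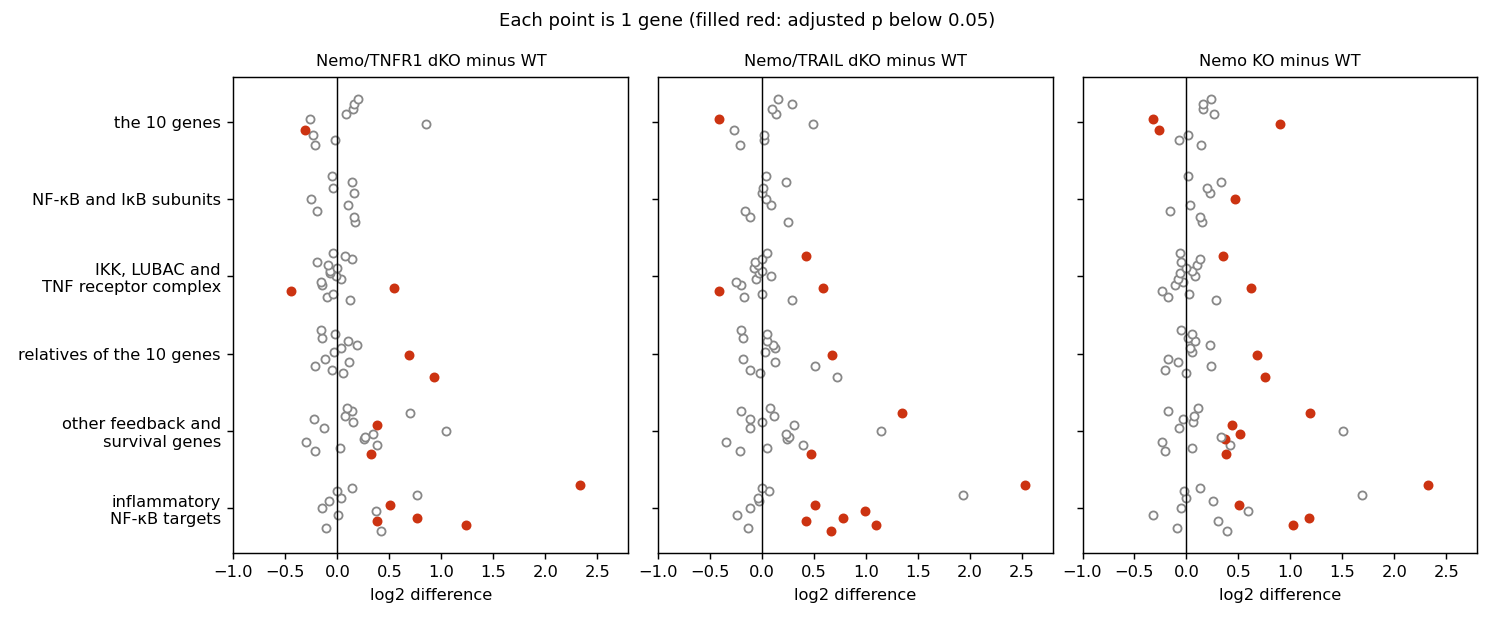
Log2 difference from WT (horizontal axis) of every measured gene of the 10 and of the 5 other lists (rows), in Nemo/TNFR1 dKO, Nemo/TRAIL dKO and Nemo KO; each point is a gene, filled red where the adjusted p was below 0.05. The 10 genes have filled points on both sides of 0, and nearly all filled points of the other lists lie right of 0, with Vcam1 farthest at 2.34, 2.53 and 2.32.

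Among the 10 genes, the levels of Cyld and Sod2 followed each other most closely over the 11 arrays (Pearson r = 0.83), and r was 0.57 after the genotype means were removed. On that scale Birc2 and Cyld (0.61) and Tnfaip3 and Birc3 (0.60) were closer, Tnfaip3 and Traf1 were at 0.57 as well, and Tnip1 and Gadd45b ran opposite (-0.69). These correlations, and those below, are descriptions over 11 arrays that share genotype differences, and no p is given. Over 18709 genes, the patterns most like Cyld were those of Ireb2, an iron-regulatory RNA-binding protein (r = 0.976), Ehbp1 (0.971) and Tfb2m, a mitochondrial transcription factor (0.966). Most like Sod2 were Cyp2c54, a cytochrome P450 (r = 0.966), Sdha, a subunit of succinate dehydrogenase (0.965), and Pcca, a subunit of propionyl-CoA carboxylase (0.965). Most like Gadd45b were Ddit3, the stress-induced transcription factor CHOP (r = 0.939), Stx3 (0.917) and Iffo2 (0.911). With genotype means removed these r were 0.82 to 0.91 for the genes like Cyld, 0.82 to 0.93 for those like Sod2 and 0.73 to 0.87 for those like Gadd45b.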

How the data were processed

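The authors deposited log2 expression values of 35556 probe sets, made with RMA per the submitters' processing notes; the sources used here name neither its version nor the array's genome build. The values were used as deposited. With limma 3.58.1 in R 4.3.3, a model with 1 mean per genotype was fitted to all 11 arrays (residual degrees of freedom 7, prior 2.51). P-values are two-sided, adjusted by Benjamini-Hochberg over all probe sets within each of 6 comparisons, and a gene was called at an adjusted p below 0.05. The model was run on simulated arrays with independent noise and planted changes of at least 1.5-fold. The Cyld and Sod2 calls are smaller than that, so the simulation says nothing on them. The number of arrays limits the precision.

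All 10 genes were named, and of each list up to 4 called genes with the largest difference per comparison. Mcl1, Itch, Tab3 and the Icam1 call in Nemo/TRAIL dKO were added after their values were seen. The 3 genes most like each called member were ranked by Pearson's r. Genes, lists and stretches of promoter were chosen with earlier results of these data known. All 10 symbols matched RefSeq by gene ID. Of 79 listed pathway genes 8 had no single-symbol probe set (Nfkb1, Chuk, Ripk1, Traf3, Naip1, Bcl2a1b, Bcl2a1d and Ripk2) and were not analysed here. Array names carry a code shared by Nemo KO and WT and different in each double knockout, and array numbers follow genotype. The sources used here do not say what they mean, and they cannot be told apart from genotype. Alternatives covered normalization, moderation, filters, array weights, 2-group fits, a replicate block, thresholds and each array left out.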

Additional observations from a re-analysis of the deposited data

Results flagged for a closer look

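Among the 10 genes and the pathway genes that passed in a comparison, Nfkbie and Birc2 met this pattern: every liver of a genotype lay on one side of the WT mean and every liver of another genotype on the opposite side. Nfkbie measured 6.79, 6.56 and 6.82 in Nemo/TNFR1 dKO, against 7.56, 7.26 and 7.54 in Nemo KO, with 7.04, 6.85 and 7.06 in WT. For Nfkbie, Nemo/TNFR1 dKO minus Nemo KO gave -0.73 (SE 0.12), which did not pass over all probe sets (limma adjusted p = 0.22). In Nemo/TRAIL dKO Nfkbie measured 7.19 and 6.85. By its brighter probe set, Birc2 lay above the WT mean in both Nemo/TRAIL dKO livers and below it in all Nemo KO livers. The difference between these genotypes was 0.0921 (SE 0.15) and did not pass. The second Birc2 probe set did not show the pattern. There Nemo KO measured 6.33, 6.43 and 6.21 around a WT mean of 6.30, and the difference was -0.01 (SE 0.09). The share of all probe sets with this pattern was not computed, so nothing is drawn from these 2 genes.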

How the results depend on the processing

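The sign of the 5 called differences held in every alternative run. Their calls did not: with only the 2 groups compared the counts of the 10 genes called in Nemo/TNFR1 dKO, Nemo/TRAIL dKO and Nemo KO against WT were 0, 0 and 0 (limma adjusted p in Nemo KO 0.102 for Cyld, 0.125 for Gadd45b and 0.053 for Sod2), and at an adjusted p below 0.01 they were also 0, 0 and 0, and with a fold of 1.5 added 0, 0 and 1. Robust moderation left 1 in Nemo KO. Quantile normalization gave 2 in Nemo/TRAIL dKO. The 25th percentile filter gave 2 in Nemo/TNFR1 dKO, the median filter 3 in Nemo/TNFR1 dKO and 2 in Nemo/TRAIL dKO, and single-symbol probe sets alone 2 in Nemo/TNFR1 dKO. The F test called 1 with a variance trend, quantile normalization, median centring or the 25th percentile filter, and 2 with the median filter or single-symbol probe sets. Leaving out an array gave 0 to 2, 0 to 2 and 0 to 1 called of the 10 in Nemo/TNFR1 dKO, Nemo/TRAIL dKO and Nemo KO against WT, 0 to 1 in the F test and 0 elsewhere. The replicate block left 0 in Nemo KO against WT. Same-numbered arrays did not deviate together (r of -0.117 to 0.0435 over 15 pairs). Deviations from the mean cancel within each genotype, so these pairs are not independent and the check cannot exclude a pairing. With the block, Nfkbie passed, with a fall, in Nemo/TNFR1 dKO against WT (-0.256, limma adjusted p = 0.0468) and in Nemo/TNFR1 dKO against Nemo KO (limma adjusted p = 0.0135), the count of pathway genes there being 1. Pathway genes called in Nemo/TNFR1 dKO, Nemo/TRAIL dKO and Nemo KO were 5, 3 and 8 at an adjusted p below 0.01, 5, 8 and 7 with a fold of 1.5, and 7 to 12, 2 to 14 and 10 to 13 without an array, the lowest Nemo/TRAIL dKO count being without a Nemo/TRAIL dKO array. With only the 2 groups they were 7 in Nemo/TNFR1 dKO and 5 in Nemo/TRAIL dKO. The share of all probe sets called was not computed for these alternatives. A changed count may therefore reflect the number of probe sets called in that fit and not these genes. The cause of these shifts was not tested.

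The reversals concerned differences that passed in no setting. With quantile normalization the difference was -0.0402 for Birc3 in Nemo KO against WT, -0.0281 for Birc2 and -0.0178 for Birc3 in Nemo/TRAIL dKO against WT, and 0.00882 for Tnip1 in Nemo/TNFR1 dKO against Nemo KO. Under median centring the difference was -0.00938 for Birc3 in Nemo KO against WT, -0.00596 for Birc2 and -0.00358 for Birc3 in Nemo/TRAIL dKO against WT, -0.00119 for Cyld (Nemo/TRAIL dKO minus Nemo KO) and 9.27e-06 for Bcl3 in Nemo/TNFR1 dKO against Nemo/TRAIL dKO. Array weights gave -0.00183 for Birc3 in Nemo KO against WT, -0.00961 for Birc2 in Nemo/TRAIL dKO against WT, 0.00406 for Traf1 in Nemo/TNFR1 dKO against Nemo KO, and 0.00928 for Birc2 and 0.00795 for Bcl3 in Nemo/TNFR1 dKO against Nemo/TRAIL dKO. The replicate block gave -0.00331 for Birc2 in Nemo/TRAIL dKO against WT and -0.0249 for Cyld (Nemo/TRAIL dKO minus Nemo KO). The mean of its probe sets gave 0.0298 for Birc2 in Nemo/TNFR1 dKO against WT and 0.0108 for Birc2 in Nemo/TNFR1 dKO against Nemo/TRAIL dKO. Leaving out an array moved the difference in Nemo KO against WT over -0.0286 to 0.0516 for Birc3. In Nemo/TNFR1 dKO against Nemo KO it moved over -0.0545 to 0.201 for Birc2, -0.309 to 0.0993 for Gadd45b, -0.0585 to 0.0471 for Tnip1, -0.104 to 0.0856 for Traf1 and -0.127 to 0.020 for Traf2. In Nemo/TNFR1 dKO against Nemo/TRAIL dKO it moved over -0.293 to 0.291 for Bcl3, -0.147 to 0.108 for Birc2, -0.116 to 0.0278 for Cyld and -0.175 to 0.0376 for Tnfaip3. In Nemo/TNFR1 dKO against WT it moved over -0.142 to 0.13 for Birc2 and -0.0431 to 0.169 for Tnfaip3. In Nemo/TRAIL dKO against Nemo KO it moved over -0.0176 to 0.0317 for Birc3, -0.0716 to 0.0727 for Cyld and -0.216 to 0.0143 for Sod2. In Nemo/TRAIL dKO against WT it moved over -0.504 to 0.081 for Bcl3, -0.0999 to 0.0912 for Birc2 and -0.0211 to 0.0591 for Birc3.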
